A study of Mus musculus with 123 samples.

Results

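Sox2 and the 200 kb around it (mm9 chr3:34500000-34700000) held 25 of the 60226 peaks in 3 deposited lists. They belong to a series on histone H3 lysine 4 methylation and were read here as lists of mouse embryonic stem cells (mESC). The lists are named ES1, ES2 and ES3, and 10 of the 25 peaks came from ES1, 9 from ES2 and 6 from ES3. A peak was a member when it shared at least 1 bp with this window. The window was chosen by the presence and width of its peaks in the 3 lists, so the presence, width, reads and scores of these peaks are given as a description, with no test. Sox2 was taken to lie at mm9 chr3:34548927-34551382 and its distal control region at about chr3:34650000-34669000. Both intervals come from the rule that defined the window, and an mm9 annotation was not used here. The label of a distal enhancer rests on this position alone, because a peak of H3K4 methylation does not measure enhancer activity.

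The series comprises 123 libraries of a droplet form of chromatin immunoprecipitation sequencing, in which barcode oligonucleotides are ligated to the chromatin of single cells inside drops. Of these, 86 used an antibody against H3K4me2 and 37 an antibody against H3K4me3. The cells were V6.5 mESC, mouse embryonic fibroblasts and EML blood progenitor cells, the last in H3K4me3 libraries alone. For 10 of the H3K4me3 libraries the labels give a mix of mESC and fibroblasts without separate barcodes. Per the labels the mESC were cultured with serum and LIF and were all of the V6.5 strain, so a single line stands for stem cells. The largest group holds 55 H3K4me2 libraries of mESC alone. The lists were read as 3 sets of mESC, but the sources used here do not give the mark, the libraries or the cells behind each list. No list has a replicate, and if cells were put into lists by these same profiles, differences between lists are partly set by that choice.

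Sox2 encodes a transcription factor of the SRY-related HMG-box family that binds DNA together with Oct4 and is required for pluripotency and, later, for neural progenitors. It is a gene with a single exon, and it lies inside the long noncoding RNA gene Sox2ot in the RefSeq annotation. In mouse ES cells its transcription depends largely on a cluster of enhancers far downstream, known as the Sox2 control region, while the regulatory regions SRR1 and SRR2 lie close to the gene on either side. H3K4me3 is found mainly at promoters, H3K4me2 at promoters and enhancers. The next protein-coding genes are Dnajc19 on one side and Atp11b on the other, by their order in RefSeq's GRCm38.p6 annotation.

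The Sox2 promoter is shown because the lists differed in whether a peak reached the start of the gene. The sequence is the 250 bases before the Sox2 start (gene ID 20674), from RefSeq, build GRCm38.p6, chr3:34649745-34649994, plus strand. Capitals mark a match to the CCAAT box on the minus strand (ATTGG) and 2 matches to the GC box, GGGCGG and its reverse CCGCCC.
Sox2 promoter: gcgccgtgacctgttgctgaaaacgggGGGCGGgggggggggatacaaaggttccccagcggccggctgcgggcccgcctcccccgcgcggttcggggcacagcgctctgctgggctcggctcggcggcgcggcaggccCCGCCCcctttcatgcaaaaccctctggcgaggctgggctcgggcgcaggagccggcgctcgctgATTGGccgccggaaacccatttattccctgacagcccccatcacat
GRCm38 and mm9 number this chromosome differently, and the GRCm38 position of the promoter happens to resemble the mm9 position of the distal region about 101 kb downstream. The peaks follow mm9 per the submitters' processing notes, and no position was carried from one build to the other.

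The promoter was rich in G and C. Its 250 bases were 72.0% G or C and held 27 CpG dinucleotides, more CpGs than 91.4% of the 32851 RefSeq promoter windows of this length, whose medians were 52.4% and 6. The CCAAT box (CCAAT, either strand) began 46 bases before the start, and 33.8% of all windows held one. The GC box matches began 223 and 111 bases before the start, and 32.7% of windows held at least 1. No match to the octamer ATGCAAAT, the E-box CACGTG or the TATA box TATAAA was found on either strand of this window, letters that 1.60%, 6.02% and 12.4% of windows held. These matches are letters only and say nothing about binding.

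**Figure D1:**
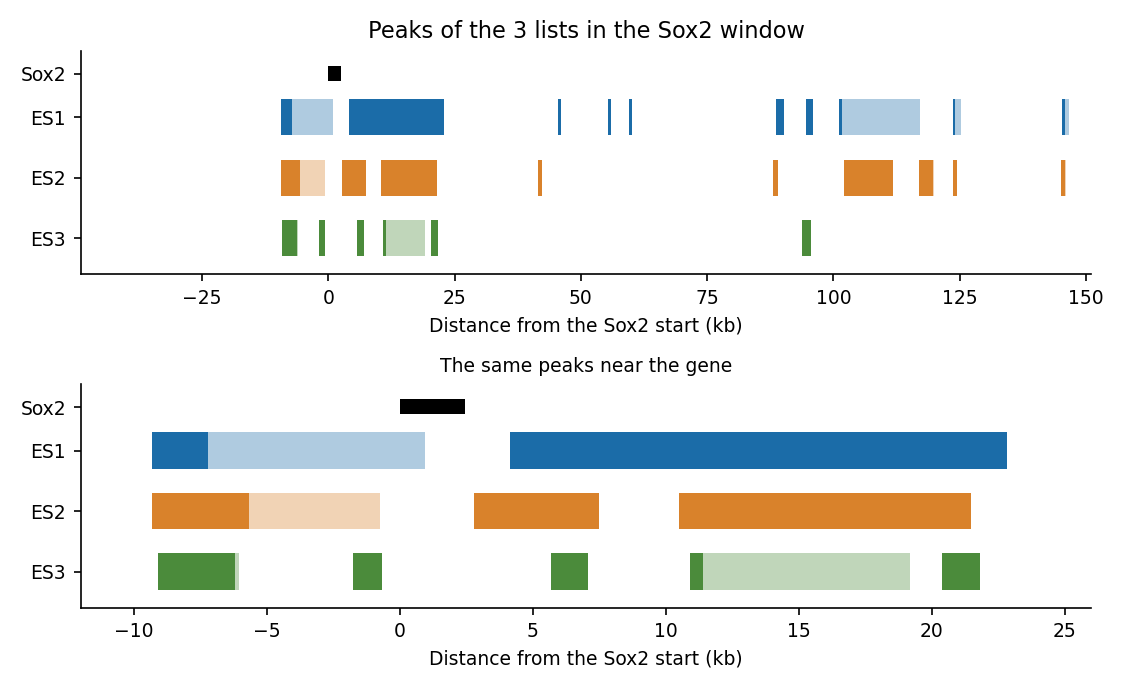
Peaks of ES1, ES2 and ES3 by distance from the Sox2 start in kb, for the whole window (top) and near the gene (bottom). Pale bars are whole peaks, dark bars the inner intervals for which reads are known, and the black bar is Sox2. Peaks of all 3 lists flank the gene, and the distal region near 101 to 120 kb holds peaks of ES1 and ES2 and none of ES3.

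Near the gene, all 3 lists held peaks on both sides of Sox2. Peaks with an end within 25 kb of the Sox2 start numbered 2 in ES1 (28974 bp covered), 3 in ES2 (24290 bp) and 5 in ES3 (15234 bp). The ES3 peaks lay wholly inside the ES1 peaks, so 100% of their bases were also called in ES1, against 78.4% of ES3 bases over all chromosomes. In the other direction ES3 covered 52.6% of the ES1 bases near the gene, against 28.0% over all chromosomes. ES2 covered 79.1% of them, against 50.9%. Shared bases rise with width, and both ES1 peaks here are over 10 kb. Over all ES1 peaks of 10 to 15 kb and of 15 kb or more, ES3 covered 40.0% and 43.95% of bases, and ES2 64.6% and 72.4%. The lists thus shared the place of these domains and differed in how much of each was called.

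Upstream of Sox2, the ES1 peak was chr3:34539598-34549881, 10284 bp wide. The ES2 peak, chr3:34539592-34548184, began 6 bp before it and was 8593 bp wide. ES3 held 2 peaks there, chr3:34539848-34542875 of 3028 bp and chr3:34547159-34548271 of 1113 bp. All 3 lists therefore had a left edge about 9.1 to 9.3 kb before the Sox2 start, and ES3 had no call over the middle of the domain.

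The lists differed at the start of the gene itself. The ES1 peak ran across the Sox2 start and covered the first 955 of the 2456 bp of the gene. The ES2 peak ended 743 bp before the start and the last upstream ES3 peak 656 bp before it, and neither list covered any base of Sox2. A stretch without a call followed in each list, 3194 bp long for ES1, 3532 bp for ES2 and 6324 bp for ES3, and it held the 3′ end of the gene. The promoter sequence above, if it has the same place in mm9, falls inside the ES1 peak and in the gap of ES2 and ES3. Reads at the start are not known for ES1, whose inner interval was the first 2117 bp of this peak.

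Downstream, the domain was the wider of those near the gene. ES1 held a single peak, chr3:34553076-34571765, of 18690 bp. ES2 held chr3:34551717-34556423 of 4707 bp and chr3:34559423-34570412 of 10990 bp. ES3 held chr3:34554596-34556000 of 1405 bp, chr3:34559839-34568109 of 8271 bp and chr3:34569317-34570733 of 1417 bp. Within their lists the widest of these ranked 99 of 26292 peaks by width in ES1, 171 of 21543 in ES2 and 95 of 12391 in ES3. On chromosome 3 they ranked 7, 9 and 2.

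Reads give the density behind these calls. Each score as deposited by the authors, times the length of an inner interval named in the list, divided without remainder by 1 unit per chromosome and list, and the quotient was taken as reads in that interval. If the score is also a density relative to the chromosome mean, a further assumption, the unit gives that mean. On chromosome 3 it would be 0.736 (ES1), 0.853 (ES2) or 0.784 (ES3) reads per kb. Reads outside peaks were not seen. No peak on chromosome 3 had fewer than 8 reads. The downstream ES1 peak held 171 reads (95% Poisson interval 146 to 199) over its whole width, or 9.15 reads per kb. By known reads it ranked 1 among the ES1 peaks of chromosome 3, where peaks counted only in part may hold more. The downstream ES2 peaks held 43 (31.1 to 57.9) and 111 (91.3 to 134), or 9.13 and 10.1 per kb. In ES3 the 2 narrow downstream peaks held 15 (8.40 to 24.7) and 11 (5.49 to 19.7) reads, and 8 reads (3.45 to 15.8) are known for the first 500 bp of the wide one. Densities in fully counted downstream peaks thus lay between 7.76 and 10.7 reads per kb in all 3 lists, with intervals that overlapped. All intervals here cover counting error only.

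The inner intervals upstream held 33 reads (22.7 to 46.3) over 2117 bp in ES1 and 45 (32.8 to 60.2) over 3664 bp in ES2. In ES3 they held 27 (17.8 to 39.3) over 2884 bp and 13 (6.92 to 22.2) over 1113 bp. These are densities of 15.6, 12.3, 9.36 and 11.7 reads per kb. The intervals differ in length and place, so the densities were not compared between lists.

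**Figure D2:**
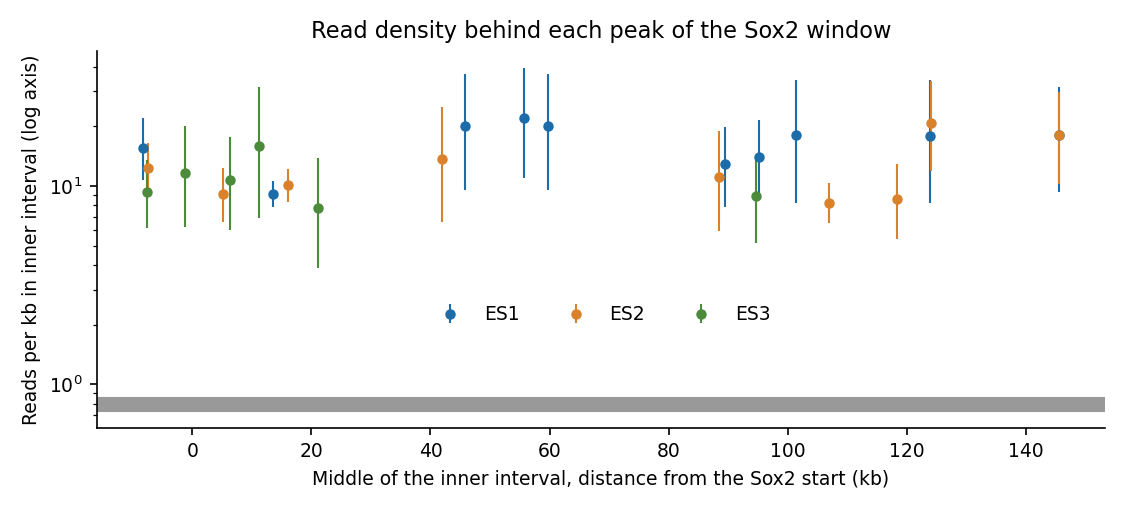
Reads per kb in the inner interval of each of the 25 peaks (log axis) against the distance of the middle of that interval from the Sox2 start. Bars are 95% Poisson intervals. The grey band, 0.736 to 0.853 reads per kb, spans the mean density of chromosome 3 in the 3 lists, if scores are relative to that mean. The peaks lie between 7.76 and 22.0 reads per kb, and the distal ES2 peaks are at the low end of this range. Short inner intervals could not show a low density: the fewest reads, 8, in 500 bp are 16.0 reads per kb. The intervals of the distal ES2 peaks overlap those of the downstream ES2 peaks near the gene.

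The distal region was called in ES1 and ES2 and not in ES3. ES1 held a single peak, chr3:34650071-34666192, 16122 bp wide, which began 101 kb after the Sox2 start. ES2 held chr3:34650983-34660584 of 9602 bp and chr3:34665894-34668788 of 2895 bp, with 5309 bp between them. Merged, the peaks of both lists spanned chr3:34650071-34668788, 18718 bp. They shared 9901 bp, which were 61.4% of the ES1 bases and 79.2% of the ES2 bases there. ES1 did not reach the last part of the second ES2 peak, of which it covered 10.3%.

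The reads behind the distal calls are known for nearly all of the ES2 peaks and for a small part of the ES1 peak. In ES2 the wider peak held 79 reads (62.5 to 98.5) over its full 9602 bp and the other 23 (14.6 to 34.5) over 2683 bp, or 8.23 and 8.57 reads per kb. Within ES2 the wider distal peak was less dense than both downstream peaks near the gene, with intervals that overlapped: 6.51 to 10.3 reads per kb against 6.61 to 12.3 and 8.31 to 12.2. In ES1 only the first 500 bp of the 16122 bp had a known count, 9 reads (4.12 to 17.1), or 18.0 reads per kb (8.23 to 34.2). These 9 reads lie just above the 8 reads of the weakest ES1 peaks on chromosome 3. An interval this short therefore could not show a low density, and this value was not compared with those of ES2. The count over the rest of the ES1 peak is unknown. The distal ES1 peak ranked 148 by width and 24316 by known reads among 26292 ES1 peaks. The wider ES2 peak ranked 270 and 219 among 21543.

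The ES3 reads in the distal region are unknown, since the lists give values for peaks alone. The next values assume that scores are relative to the chromosome mean. At the relative density of the ES2 inner intervals, the read depth of ES3 on chromosome 3 would give 93.7 reads over the same 12285 bp. The mean density of ES3 on that chromosome would give 9.62. These values place the size of the signal that the ES2 calls stand for on the scale of ES3, and are no measurement of ES3. The ES2 density comes from intervals that had been called as peaks in ES2. Why ES3 has no call there was not tested.

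**Figure D3:**
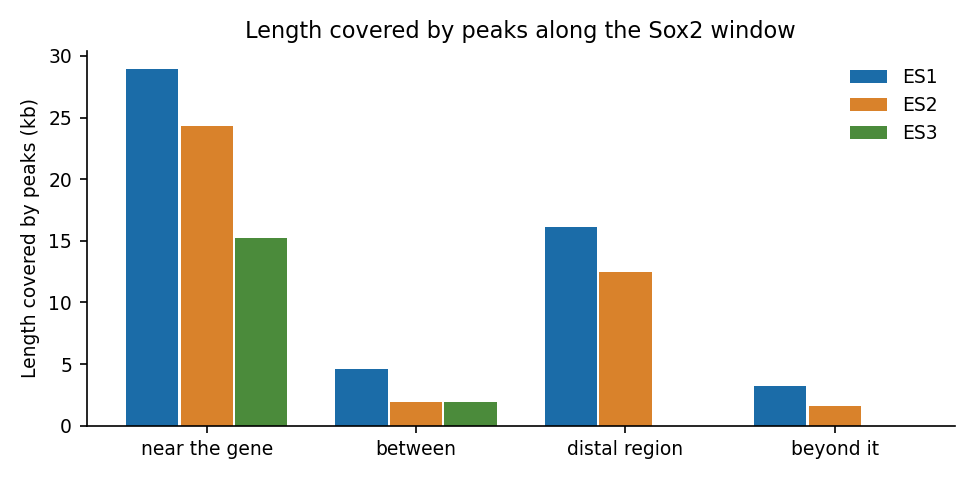
Length covered by peaks in kb, for ES1, ES2 and ES3, in 4 parts of the Sox2 window: near the gene (within 25 kb of the start), between gene and distal region, in the distal region, and beyond it. ES3 covers 15.2 kb near the gene and 0 kb in the distal region, where ES1 covers 16.1 kb and ES2 12.5 kb.

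As a share of what each list covered in the window, the distal region took 30.5% for ES1, 31.0% for ES2 and 0% for ES3. The peaks near the gene took 54.8%, 60.3% and 88.8%. Over the whole window ES1 covered 52880 bp, ES2 covered 40294 bp and ES3 covered 17154 bp, so ES3 covered 32.4% as many bases as ES1, against 35.7% over all chromosomes. The ratio for the whole window was thus close to that of the lists at large, while its parts had other ratios. It was 52.6% near the gene and 0% in the distal region. How such parts vary elsewhere was not tested.

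Counted as peaks, the window was near the background of the lists. In the window 7 of 10 ES1 peaks had no overlapping ES3 peak, and over all chromosomes 62.3% of ES1 peaks had none. For ES2 the count was 6 of 9, with 57.3% over all. Of the ES1 peaks 4 of 10 had no ES2 peak (38.9% over all), and of the ES2 peaks 1 of 9 had no ES1 peak (21.9%). All 6 ES3 peaks overlapped an ES1 peak and 1 of 6 had no ES2 peak, against 13.4% and 22.9% of ES3 peaks without one over all. With so few peaks none of these counts describes more than the lists at large.

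Few ES1 peaks as wide as the distal peak lacked an ES3 call. Among ES1 peaks of at least 10 kb, 20 of 558 (3.58%) had no ES3 peak, and the distal peak was 1 of them, while the 2 such peaks near Sox2 both had one. Among the 148 ES1 peaks at least as wide as the distal peak, 3 (2.03%) had no ES3 peak, the distal peak included, and 0 had no ES2 peak. Of the 270 ES2 peaks at least as wide as the wider distal ES2 peak, 9 (3.33%) had no ES3 peak. For the narrower classes the share was far higher, 79.8% for ES1 peaks under 1 kb. Since the distal region was chosen with its missing ES3 call known, these shares describe how common such a call is and test nothing.

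**Figure D4:**
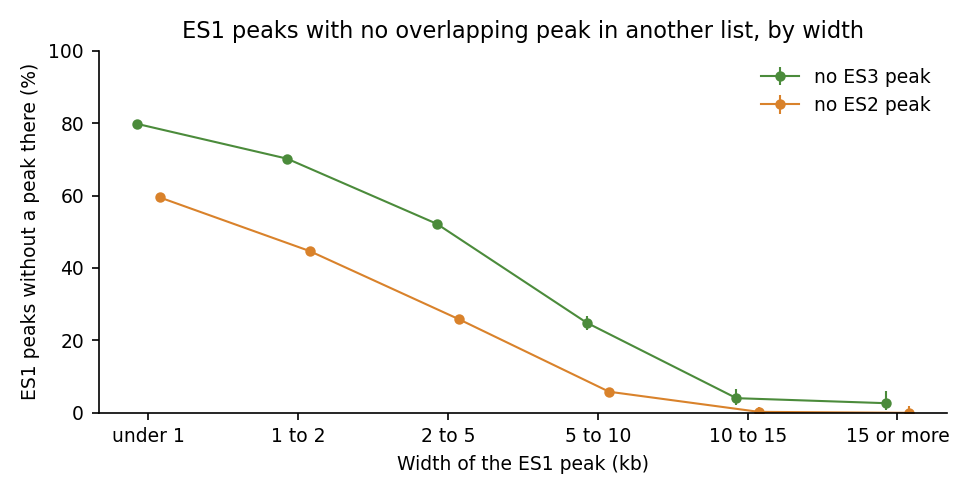
Share of ES1 peaks with no overlapping ES3 peak or ES2 peak, in percent, by width of the ES1 peak in kb, over all chromosomes. Bars are exact binomial 95% intervals. The share without ES3 falls from 79.8% under 1 kb to 2.66% at 15 kb or more, the class that holds the distal peak.

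By bases, the wide ES1 peaks at Sox2 differed from each other. ES3 covered 40.3% of the upstream peak, 59.3% of the downstream peak and 0% of the distal peak, against a median of 39.8% over the 558 ES1 peaks of at least 10 kb. The downstream share was above that of 78.9% of these peaks. ES2 covered 83.5%, 76.7% and 61.4% of them, against a median of 70.8%. The distal peak therefore lay below the middle of the wide ES1 peaks in ES2 as well, with 36.7% of them lower.

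The narrow peaks between the gene and the distal region were mostly called in 1 list. ES1 held 3 peaks of 500 to 516 bp at 45.6, 55.4 and 59.5 kb from the Sox2 start, with 10, 11 and 10 reads, and ES2 held 1 of 732 bp at 41.6 kb with 10 reads. None of these 4 overlapped a peak of another list, and 10 or 11 reads lie just above the 8 reads of the weakest peaks on chromosome 3. At 88 to 90 kb, ES1 and ES2 overlapped, with peaks of 1629 bp and 1174 bp that held 20 (12.2 to 30.9) and 13 (6.92 to 22.2) reads. At 94 to 96 kb, ES1 and ES3 overlapped, with peaks of 1428 bp and 1920 bp that held 20 (12.2 to 30.9) and 17 (9.90 to 27.2) reads, and ES2 had none. This ES3 peak, chr3:34642617-34644536, ended 5535 bp before the distal ES1 peak, and it was the only ES3 peak of the window away from the gene.

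Beyond the distal region, ES1 and ES2 again overlapped and ES3 had no peak. At 124 kb from the Sox2 start the ES2 peak of 768 bp held 16 reads (9.15 to 26.0), while 9 reads (4.12 to 17.1) are known for the first 501 bp of the ES1 peak of 1742 bp. The densities of these inner intervals were 20.8 and 18.0 reads per kb, and the 9 reads of ES1 again lie just above the 8 of its weakest peaks on chromosome 3. At 145 kb the inner interval of the ES2 peak, 827 of 833 bp, held 15 reads (8.40 to 24.7), and that of the ES1 peak, only 666 of 1469 bp, held 12 (6.20 to 21.0). Their densities were 18.1 and 18.0 reads per kb. Narrow peaks like these often have no ES3 call, as the shares by width show. Of the 11 merged regions of the window, 2 were called in all 3 lists, both near the gene. A further 4 were in ES1 and ES2 without ES3, 1 was in ES1 and ES3, 3 were in ES1 alone and 1 in ES2 alone. Over all chromosomes, 47.6% of the regions of ES1 and ES2 had no ES3 peak, against 4 of 6 here.

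The peaks of the window lay far from other peaks, at distances that were long but not rare in each list. The nearest ES1 peak lay 559 kb before the first peak of the window and 287 kb after the last, and in ES3 these distances were 606 and 595 kb. The median distance between neighbouring peaks was 16.7 kb in ES1 and 32.8 kb in ES3. The ES1 distances were longer than 96.6% and 93.9% of all in that list, and the ES3 distances than 92.9% and 92.8%. Among 6651 stretches of 200 kb that held a peak of any list, the rank of the Sox2 window by covered length was 98 for ES1, 98 for ES2 and 243 for ES3.

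Other regions had a similar pattern over the 3 lists. Likeness was the distance between log2(covered bp + 1) values of merged regions. The region nearest in pattern to the upstream Sox2 region, which covers 10284, 8593 and 4141 bp in ES1, ES2 and ES3, was chr6:35201126-35211469 with 10344, 8588 and 4155 bp. Next were chr7:25241091-25251632 and chr10:79619561-79629876. The region nearest to the distal one was chr1:154736344-154752705 with 16362, 10431 and 0 bp, followed by chr4:154556449-154576443 with 19995, 11539 and 0 bp and chr2:32403811-32416302 with 10514, 12492 and 0 bp. On the log2 scale 0 bp lies far from any peak, so their shared 0 bp in ES3 follows from the measure. By covered bp the nearest was chr4:10917706-10935291 with 16433, 11786 and 1532 bp. The chr1 region above came next, then chr1:90964993-90979938 with 14936, 11622 and 2189 bp. Genes at these places were not looked up, and 3 lists are too few for more than a description.

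Which list kept a distal call depended on the value used to shorten the lists. With ES1 and ES2 shortened to the 12391 peaks of highest score, the distal ES1 peak stayed and both distal ES2 peaks were lost. With the 12391 peaks of most reads, both ES2 peaks stayed and the ES1 peak, with its 9 known reads, was lost. Neither cut is a threshold on distal signal. As read here, the score is proportional to reads per length of the inner interval. The wider distal ES2 peak was above 24.9% of ES2 peaks by score and 99.0% by reads. For the ES1 peak both values cover only 500 of its 16122 bp. ES3 holds 12391 peaks, so it was not shortened and its lack of a distal peak was fixed in both cases.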

How the data were processed

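The members and the settings were chosen with earlier results of these data known. Reads were aligned with Bowtie to mm9, per the submitters' processing notes (version and peak caller: not given in the sources used here). For each peak the authors deposited a chromosome, start, end, an inner interval and a score. The score has no stated unit and is the authors' own value, used within a list. Multiplied by the inner length it was a whole multiple of 1 unit per chromosome in 100% of peaks (tolerance 0.001), and that multiple was taken as reads, an assumption. Taking the unit as the mean length per read of the chromosome is a further assumption. Whether duplicates were removed is not given. The code for unit recovery and overlaps was tested on simulated data. The simulated scores were built from whole counts, so they check the code and not the reading of the score as reads.

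Computed here, with Python 3.11.15, pandas 2.3.3 and scipy 1.17.1, were overlaps (at least 1 bp), covered lengths, merged regions, ranks, and exact Poisson or binomial 95% intervals. Starts are counted from 1. The text names every peak of the window and the 3 regions nearest in pattern to each of 2 regions. The bound of 25 kb was set after the peaks were seen. The gene list planned for an mm9 annotation was not used. Labels tie no library to a list, so no groups of libraries were compared.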

Additional observations from a re-analysis of the deposited data

How the results depend on the processing

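A wider window (100 kb more on each side), merging within 1 kb and the 50% rule for membership left all counts and covered lengths of the window as they were. The peak positions fixed this outcome, so it shows no stability. The nearest outside peak lay at least 287 kb away, no peak crossed the window edge, and no neighbours in a list lay within 1 kb. ES3 covered 0 bp of the distal region also when it was widened by 5 kb or narrowed by 2 kb. Narrowing a region with 0 bp could give no other value. Widening by 5 kb stopped just short of the ES3 peak that ends at chr3:34644536, so this 0 depends on the width chosen. With 10 kb on each side of Sox2 ES1 covered 18591 bp, ES2 15260 bp and ES3 7090 bp. It was 9262, 8924 and 2518 bp with 5 kb, 28591, 24290 and 15234 bp with 20 kb, and 28974, 24290 and 15234 bp for the peaks within 25 kb, a bound set after seeing the data. The order of the lists held in each.

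Gene peaks here are those that overlap Sox2 with 10 kb on each side, which are 4 in ES3 and not the 5 within 25 kb. At the top 12391 peaks by score, 1 of 2 ES1 gene peaks and 0 of 2 distal ES2 peaks were left, and by reads 0 of 1 distal ES1 peaks. The top 6195 by score left 1 of 2 gene peaks in ES1, 0 of 3 in ES2 and 3 of 4 in ES3, and 1 of 1 distal peaks in ES1 and 0 of 2 in ES2. Fewer peaks per list lower such counts by construction. Requiring 50% of both peaks, 80.6% of ES1 and 76.5% of ES2 peaks had no ES3 peak and 62.3% of ES1 peaks no ES2 peak. On chromosome 3 alone, 99.45% of ES1 and 99.64% of ES3 peaks were narrower than the widest near the gene, and 99.21% of ES1 peaks narrower than the distal one. By covered bp, 1 of the 3 regions most like the distal one was kept. Shares were judged by their 95% interval, and counts and lengths by a factor of 1.5. Of 64 alternative values, 42 stayed within their own limit and 22 did not. The 42 include the values of the window settings above, which could not have moved. The same holds for the narrowed distal region of ES3 and its missing distal peaks in shortened lists. It also holds for the ES3 gene peaks at 12391, where ES3 was not shortened. The number 42 is therefore no measure of stability.

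No paired analysis was possible because no replicate numbers come with the lists and nothing was tested between groups of libraries. A region without a peak is not shown to be unmarked: with under 1 read per kb on chromosome 3, as the units are read here, a peak had at least 8 reads.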
